A study of Mus musculus with 12 samples.

Results

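Transcripts of Il21, Il2 and the receptor chains that pair with the common gamma chain Il2rg were examined in mouse CD4+ T cells cultured toward the Th17 fate. The genes were Il21, Il21r, Il2, Il2ra, Il2rb, Il2rg, Il7r, Il4ra, Il9r and Il15ra, taken by symbol. All 10 were found, each listed once, among 23991 gene names. Of these, 9 passed the filter for testing, along with 10126 genes in all, and Il9r did not.

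Male C57BL/6 mice 8 to 10 weeks old, wild type (WT) or Adcy10-/-, gave the cells, taken from lymph nodes or spleens. Adcy10 encodes soluble adenylyl cyclase, which makes cAMP inside the cell. CD4+ cells were enriched by negative magnetic selection and stimulated for 18 hours through CD28 (antibody at 2 µg/mL) and CD3 (plate-bound antibody at 10 µg/mL). The culture description also lists IL-6 at 25 ng/mL, both IL-1β and IL-23 at 20 ng/mL, and blocking antibodies against IL-4 and IFNγ at 1 µg/mL. It does not say which of these were in the baseline medium and which were among the polarizing cytokines added to it. Each genotype was sampled in both media, with 3 libraries in each of the 4 groups. Whether libraries came from separate animals is not stated, so the p-values measure the spread between these libraries, which may be technical.

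Cytokines of this family bind receptors that share the common gamma chain, encoded by Il2rg, and differ in the other chains that give each receptor its ligand. JAK1 binds the private chains and JAK3 the common chain, and the ligands act through STAT factors, mainly STAT5 for IL-2, IL-7, IL-9 and IL-15, STAT6 for IL-4 and STAT3 for IL-21. In T cells IL-2 is the growth factor made on activation and is known to restrain Th17 differentiation, while IL-21 is made by Th17 and follicular helper cells and, like IL-6 and IL-23, signals through STAT3.

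Il21 and Il2 are neighbors in the genome. Their start sites lie 107 kb apart on mouse chromosome 3, both on the minus strand (RefSeq, GRCm38.p6). The 250 bases before each start site are shown because both genes are known targets of NFAT, the factor that calcium signals bring to the nucleus of an activated T cell. Capitals mark the NFAT core letters GGAAA, or their reverse complement TTTCC.
Il21, chr3:37232637-37232886, minus strand: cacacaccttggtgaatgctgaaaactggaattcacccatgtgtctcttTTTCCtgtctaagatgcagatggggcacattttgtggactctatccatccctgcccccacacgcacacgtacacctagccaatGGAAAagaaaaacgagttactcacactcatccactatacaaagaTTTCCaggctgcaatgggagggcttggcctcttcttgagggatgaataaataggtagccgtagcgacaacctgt
Il2, chr3:37125955-37126204, minus strand: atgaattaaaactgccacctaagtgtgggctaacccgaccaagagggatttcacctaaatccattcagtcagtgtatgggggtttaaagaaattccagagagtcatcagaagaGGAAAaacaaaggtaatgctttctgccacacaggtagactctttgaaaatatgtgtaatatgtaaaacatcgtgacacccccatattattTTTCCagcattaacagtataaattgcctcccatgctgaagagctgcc
The Il21 window held 3 matches and the Il2 window 2, counted on both strands. Of 32851 promoter windows of this length, 6.39% held 3 or more matches and 21.4% held 2 or more. Neither window held the AP-1 letters TGANTCA (found in 6.75% of windows) or the STAT letters TTCNNNGAA (7.02%). These matches describe letters only. The expression files use an older build (mm9), so genes and windows were joined by symbol, and 9 of the 10 genes had a window.

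Library totals ran from 547870 to 594750 FPKM, fragments scaled to transcript length and library size, with 9778 to 9925 genes at 1 FPKM or more. The files give no read counts, so absolute depth is unknown. The spacing of the lowest values put the deepest library at 1.4 times the shallowest. Adcy10 was listed at 0 in all 12 libraries and therefore checks no genotype label. Of 12 CD4 T cell markers 11 were found, with a summed level of 2345 to 2845 FPKM, and Cd4 lay between 119 and 179 FPKM. The 4 libraries numbered 1 stood apart. Their B cell markers (9 of 9 found) summed to 2.54 to 13.9 FPKM against 33.1 to 92.5 FPKM in the other 8, and Cd8a lay at 0.0673 to 0.225 FPKM against 0.933 to 2.52 FPKM. Macrophage markers (6 of 7 found, 2 under 1 FPKM in all libraries) were mostly Lyz2, at 60.9 and 93.5 FPKM in the WT libraries numbered 1 and 11.8 to 36.8 FPKM in the other 10.

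With polarizing cytokines Il21 rose about 10-fold in both genotypes, the largest change of the family, and the receptor genes Il21r and Il4ra rose about 1.8-fold. The calls of Il21r and Il4ra were each lost in some of the fits that left out 1 library. Without the libraries numbered 1 Il4ra passed in neither genotype and Il21r in WT cells only. Il15ra fell in Adcy10-/- cells, a call also lost in some fits without 1 library but kept without the libraries numbered 1. Il2 and Il2ra were higher, and Il15ra and Il7r lower, with cytokines in each of the 3 numbered library pairs of both genotypes, but of these 8 differences only that of Il15ra in Adcy10-/- cells passed in the fit to all libraries without a replicate term. Of the other 7, 6 passed with the replicate term, 3 of these also without the libraries numbered 1 (Il2 in both genotypes and Il15ra in WT cells), and Il7r in Adcy10-/- cells passed in neither. For the shared chain Il2rg and the IL-2 and IL-15 chain Il2rb no difference between media passed, with or without the replicate term. No member passed the test for a difference between WT and Adcy10-/- cells.

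Tests were limma fits to log2(FPKM + 1) over all 10126 genes, with Benjamini-Hochberg adjustment and a threshold of 0.05. In WT cells 3 of 9 members passed (3 higher), where 4.93% of all tested genes did. In Adcy10-/- cells 4 of 9 passed (3 higher, 1 lower), against 4.27% of all tested genes. Libraries of the same number and genotype deviated together across media. A fit with the replicate number as a block, shared by both genotypes, is therefore given where it moves a call. With the block 7 of 9 passed in WT cells (5 higher, 2 lower; background 14.8%) and 6 of 9 in Adcy10-/- cells (5 higher, 1 lower; background 10.7%). The ranges of the 2 media did not overlap for 6 of 9 members in WT cells, where 20.8% of all tested genes did the same, and for 7 of 9 in Adcy10-/- cells, against 21.6%. The median log2 change of the members was 0.45 in WT and 0.49 in Adcy10-/- cells, against -0.01 and -0.02 over all tested genes.

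**Figure D1:**
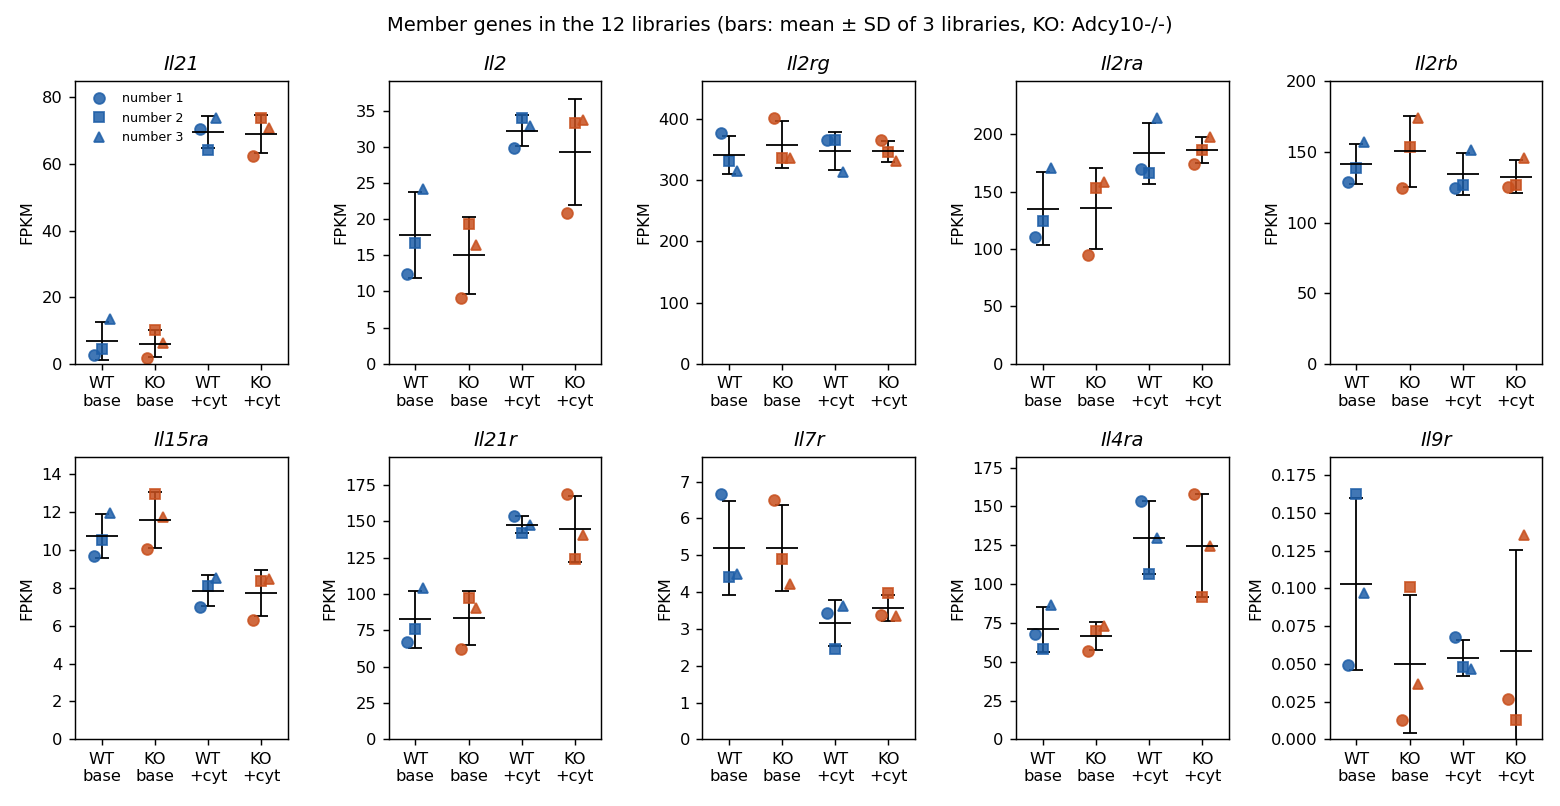
FPKM of each of the 10 genes (vertical axes, one scale per panel) in the 12 libraries (points, shaped by replicate number) by group, baseline (base) or with cytokines (+cyt), with bars for the mean ± SD of 3 libraries, drawn down to 0 where the bar of Il9r would cross it; KO is Adcy10-/-. Il21 lies at 1.84 to 13.4 FPKM in the 6 baseline libraries and 62.5 to 73.8 FPKM in the 6 with cytokines, while Il2rg spans 312.9 to 402.2 FPKM with the media mixed.

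Il21 was low and variable in baseline medium and uniformly higher with cytokines. In WT baseline libraries 1, 2 and 3 it read 2.58, 4.40 and 13.4 FPKM, and in the WT cytokine libraries 70.3, 64.3 and 73.8 FPKM. Adcy10-/- libraries read 1.84, 9.98 and 6.11 FPKM at baseline and 62.5, 73.7 and 70.8 FPKM with cytokines. Every cytokine library lay above every baseline library, and the genotypes were mixed within each medium. The mean went from 6.79 ± 5.78 to 69.5 ± 4.84 FPKM in WT cells (SD, n = 3), 10.2-fold, and from 5.98 ± 4.07 to 69.0 ± 5.82 FPKM in Adcy10-/- cells (SD, n = 3), 11.5-fold. On the log2(FPKM + 1) scale, which understates changes of low genes, the rise was 3.43 (SE 0.50, limma adjusted p = 0.00314) and 3.53 (SE 0.50, limma adjusted p = 0.00235). Both calls held in all 12 fits that left out 1 library, with rises of at least 3.00 in WT and 2.98 in Adcy10-/- cells. The coefficient of variation between libraries was 85.1% and 68.2% at baseline (WT, Adcy10-/-) and 6.96% and 8.44% with cytokines. In bulk RNA, fewer cells making a transcript and less transcript per cell cannot be told apart.

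Il2 encodes the T cell growth factor and moved the same way by a smaller amount. It read 12.4, 16.8 and 24.2 FPKM in WT baseline libraries 1 to 3 and 29.8, 34.0 and 32.8 FPKM with cytokines. Adcy10-/- libraries gave 9.10, 19.4 and 16.5 FPKM at baseline and 20.8, 33.2 and 33.7 FPKM with cytokines. The ranges did not overlap between media in either genotype, although the lowest Adcy10-/- cytokine library lay just above the highest baseline one. The log2 changes of 0.87 (SE 0.28) and 0.95 (SE 0.28) did not pass (limma adjusted p = 0.106 and 0.0888), and with the replicate block they did (limma adjusted p = 0.00583 and 0.00391). Without the 4 libraries numbered 1, where Il2 was lowest in 4 of 4 groups, both also passed (limma adjusted p = 0.0394 and 0.0242). The WT difference also passed without WT baseline library 3 (limma adjusted p = 0.0497) or Adcy10-/- baseline library 1 (0.0494).

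The order of the 2 ligands turned over between media. FPKM is scaled by transcript length, so the levels of both genes can be set side by side. Il2 lay above Il21 in 6 of 6 baseline libraries and Il21 above Il2 in 6 of 6 cytokine libraries. The Il21 to Il2 ratio went from 0.341 ± 0.185 to 2.17 ± 0.245 in WT cells and from 0.363 ± 0.157 to 2.44 ± 0.492 in Adcy10-/- cells (SD, n = 3).

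**Figure D2:**
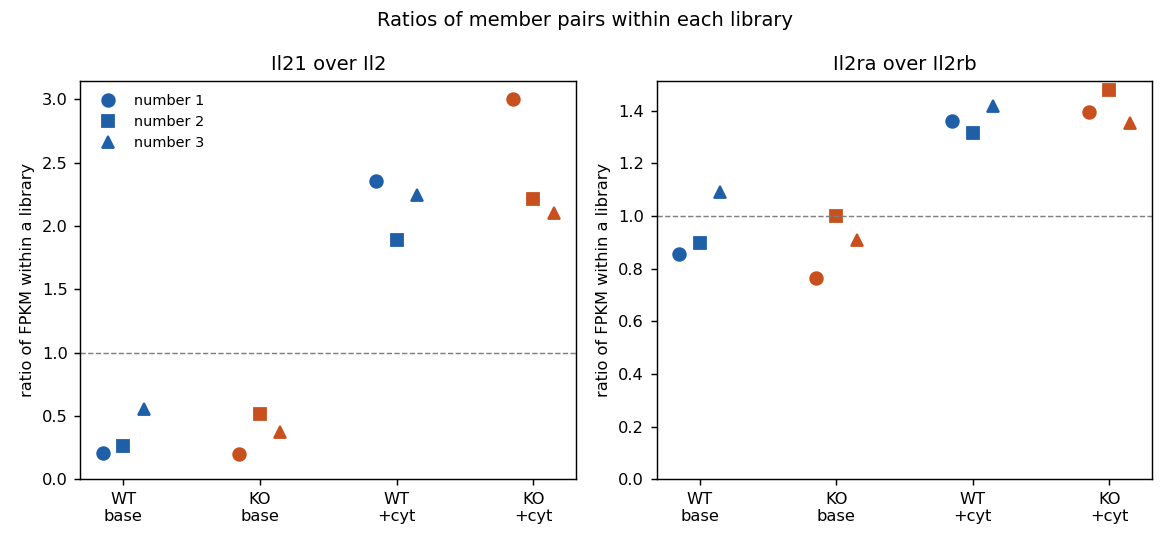
Ratios of FPKM of gene pairs (vertical axes) in each library (points, shaped by replicate number) by group, with a dashed line at 1; base is baseline medium, +cyt the medium with cytokines and KO Adcy10-/-. The ratio of Il21 to Il2 lies at 0.202 to 0.552 in baseline libraries and at 1.89 to 3.01 with cytokines, and that of Il2ra to Il2rb is above 1 in all 6 cytokine libraries.

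Il2rg, the common chain, was the most abundant of the 10 transcripts in 12 of 12 libraries and ranked 210 among the tested genes by mean level. Its WT baseline libraries read 376.9, 331.1 and 316.1 FPKM and its WT cytokine libraries 366.4, 365.6 and 312.9 FPKM. Adcy10-/- libraries gave 402.2, 336.9 and 336.4 FPKM at baseline and 365.5, 345.8 and 331.2 FPKM with cytokines. All 4 groups overlapped, and the library numbered 1 was the highest of its group in each. The log2 change with cytokines was 0.03 in WT (95% interval -0.17 to 0.23, limma adjusted p = 0.91) and -0.04 in Adcy10-/- cells (95% interval -0.24 to 0.16, limma adjusted p = 0.927). The Il2rg to Il21r ratio went from 4.33 to 2.36 in WT and from 4.55 to 2.44 in Adcy10-/- cells. The Il2rg to Il4ra ratio went from 4.97 to 2.74 and from 5.50 to 2.92.

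The IL-2 receptor adds Il2ra (CD25, which raises affinity) and Il2rb, the signaling chain that IL-15 also uses. Il2ra read 110.1, 124.3 and 170.8 FPKM in WT baseline libraries 1 to 3 and 169.6, 166.5 and 214.3 FPKM with cytokines, and these ranges overlapped. In Adcy10-/- cells it read 95.1, 153.5 and 158.0 FPKM, then 174.5, 186.5 and 197.5 FPKM, without overlap. The log2 changes of 0.45 and 0.49 (SE 0.20 each) did not pass (limma adjusted p = 0.243 for both), and passed with the replicate block (limma adjusted p = 0.0306 and 0.0262). The Adcy10-/- change was 0.25 without Adcy10-/- baseline library 1 and 0.30 without the 4 libraries numbered 1. Regulatory T cells carry much Il2ra, and 8 of 8 of their markers were found, Foxp3 among them at 12.2 to 24.7 FPKM. The summed level of those markers was 326 to 378 FPKM at baseline and 365 to 428 FPKM with cytokines in WT cells, and 341 to 396 and 366 to 408 FPKM in Adcy10-/- cells. Of 7 tested, 3 rose in WT cells (Ctla4, Foxp3 and Lrrc32) and 1 in Adcy10-/- cells (Ctla4), and 0 fell. The median change of the list was 0.00 and -0.03, with 4 and 3 of 7 above 0. Foxp3, the factor that defines those cells, rose by 0.53 in WT cells (limma adjusted p = 0.0472) and gave 0.38 in Adcy10-/- cells (0.171), while Nrp1 gave -0.29 and -0.33 (0.274 and 0.23). The part of those cells in the Il2ra values was not tested.

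Il2rb did not follow Il2ra. Its WT libraries read 128.5, 138.5 and 156.7 FPKM at baseline and 124.7, 126.8 and 151.3 FPKM with cytokines. Its Adcy10-/- libraries read 124.1, 153.6 and 174.1 FPKM, then 125.2, 126.3 and 145.8 FPKM. All groups overlapped, and the log2 changes were -0.07 and -0.17 (SE 0.12 each, limma adjusted p = 0.808 and 0.605). With the block the 95% interval of the Adcy10-/- change was -0.30 to -0.05, and the change did not pass (limma adjusted p = 0.0718). It was -0.27 without the 4 libraries numbered 1 (limma adjusted p = 0.356). Il2rb exceeded Il2ra in 5 of 6 baseline libraries, and Il2ra exceeded Il2rb in 6 of 6 with cytokines. The Il2ra to Il2rb ratio went from 0.948 ± 0.125 to 1.36 ± 0.0514 in WT cells and from 0.891 ± 0.118 to 1.41 ± 0.0619 in Adcy10-/- cells (SD, n = 3).

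Il15ra binds IL-15 and presents it to cells with Il2rb and Il2rg. It read 9.64, 10.5 and 11.95 FPKM in WT baseline libraries 1 to 3 and 6.97, 8.09 and 8.50 FPKM with cytokines. In Adcy10-/- cells it read 10.0, 13.0 and 11.7 FPKM at baseline and 6.30, 8.37 and 8.48 FPKM with cytokines. Every cytokine library lay below every baseline library. The log2 change was -0.40 in WT cells (SE 0.12, limma adjusted p = 0.0925; 0.00314 with the replicate block and 0.0472 without the libraries numbered 1) and -0.53 in Adcy10-/- cells (SE 0.12, limma adjusted p = 0.0327; 0.00087 with the block). The Adcy10-/- call was lost without WT baseline library 2 (adjusted p = 0.0503), Adcy10-/- baseline libraries 2 or 3 (0.105 and 0.113) or Adcy10-/- cytokine libraries 1, 2 or 3 (0.120, 0.0538 and 0.0505). It was also lost without the filter on low values (0.0728) and with only the compared groups in the fit (0.0849). The CD8 T cell list (5 of 5 found) also summed lower with cytokines, at 45.0 to 57.1 FPKM at baseline and 20.0 to 27.3 FPKM after. Most of that difference was Eomes, a factor of memory and cytotoxic T cells that went from 18.7 to 30.2 FPKM down to 2.01 to 3.01 FPKM, while Cd8b1 lay at 7.49 to 12.2 FPKM and Cd8a at 0.0673 to 2.52 FPKM over all libraries. Crtam, an adhesion receptor of that list, fell by 0.67 in Adcy10-/- cells (limma adjusted p = 0.0351) and gave -0.58 in WT cells (0.0583). Gzmk, also on it, went the other way, from 0.447 to 0.803 FPKM up to 0.836 to 2.71 FPKM in WT cells. In Adcy10-/- cells it went from 0.505 to 1.06 FPKM up to 1.18 to 2.72 FPKM, and neither change passed. The median change of the list was 0.08 in WT and -0.20 in Adcy10-/- cells, with 3 and 1 of 5 above 0. NK markers (7 of 7 found, 5 of 7 under 1 FPKM in all libraries) summed to 3.30 to 4.17 FPKM at baseline and 5.83 to 10.8 FPKM with cytokines. The higher sum came from Gzma, which read 0.104 to 2.17 FPKM at baseline and 4.54 to 8.80 FPKM with cytokines. Klrd1 read 1.00 to 2.92 FPKM at baseline and 0.835 to 1.55 FPKM with cytokines, with overlap, and Ncr1 lay at 0 to 0.218 FPKM. Klrk1, under 1 FPKM throughout, was lower with cytokines without overlap, at 0.4379 to 0.7314 FPKM at baseline and 0.2472 to 0.4095 FPKM after. The part of these cells in Il15ra and Il2rb was not tested.

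Il21r, the private chain of the IL-21 receptor, rose with its ligand in both genotypes. WT libraries read 66.9, 76.3 and 104.5 FPKM at baseline and 153.5, 142.1 and 147.8 FPKM with cytokines. Adcy10-/- libraries read 62.1, 97.1 and 90.6 FPKM, then 169.1, 124.1 and 140.4 FPKM. The media did not overlap in either genotype. The log2 rise was 0.86 in WT (SE 0.18, limma adjusted p = 0.0223) and 0.80 in Adcy10-/- cells (SE 0.18, limma adjusted p = 0.0313). The WT call was lost without WT baseline libraries 1 or 2 (adjusted p = 0.0686 and 0.104) or WT cytokine libraries 1, 2 or 3 (0.0778, 0.0595 and 0.0596), and the Adcy10-/- call without Adcy10-/- baseline libraries 1 or 3 (0.108 and 0.0655) or cytokine libraries 1 or 3 (0.128 and 0.0853). Without the 4 libraries numbered 1 the Adcy10-/- change was 0.49 (adjusted p = 0.123). Neither call held without the filter on low values (0.0564 and 0.0756), nor the Adcy10-/- call with only the compared groups in the fit (0.0687).

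Il4ra, the chain that binds IL-4 and, with another partner, IL-13, rose by a like amount. WT libraries read 68.0, 58.1 and 86.4 FPKM at baseline and 153.5, 106.6 and 129.5 FPKM with cytokines. Adcy10-/- libraries read 56.7, 70.0 and 73.1 FPKM, then 158.3, 91.8 and 124.3 FPKM. The media did not overlap, and in both genotypes the cytokine library numbered 1 was the highest. The log2 rise was 0.87 in WT (SE 0.20, limma adjusted p = 0.0322) and 0.87 in Adcy10-/- cells (SE 0.20, limma adjusted p = 0.0336). Without the 4 libraries numbered 1 the changes were 0.72 and 0.57 and neither passed (limma adjusted p = 0.0884 and 0.231). Neither call held without the filter (0.0759 and 0.0817), nor the Adcy10-/- call with only the compared groups in the fit (0.0656). Single libraries also ended the WT call, namely WT baseline 1 or 2 (adjusted p = 0.0785 and 0.155), WT cytokines 1 or 3 (0.118 and 0.0809) or Adcy10-/- cytokines 3 (0.0504). The Adcy10-/- call was lost without Adcy10-/- baseline 1, 2 or 3 (0.136, 0.0637 and 0.0734), WT cytokines 3 (0.0525) or Adcy10-/- cytokines 1 or 3 (0.128 and 0.103). B cells also carry Il4ra and Il21r, and B cell markers were lowest in the libraries numbered 1. Those libraries held the lowest Il21r of their group in 2 groups (both baseline) and the highest in 2 (both with cytokines), and for Il4ra the lowest in 1 group and the highest in 2. The part of B cells in these values was not tested.

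Il7r, the chain for the survival signal IL-7, was low in these activated cells. WT libraries read 6.68, 4.41 and 4.51 FPKM at baseline and 3.42, 2.44 and 3.62 FPKM with cytokines, and Adcy10-/- libraries 6.49, 4.90 and 4.21 FPKM, then 3.38, 3.98 and 3.35 FPKM. All cytokine libraries lay below all baseline libraries. The log2 changes of -0.57 (SE 0.17) and -0.43 (SE 0.17) did not pass (limma adjusted p = 0.0822 and 0.228). With the block the WT difference passed (limma adjusted p = 0.0256) and the Adcy10-/- difference did not (0.0876). Without the libraries numbered 1 the Adcy10-/- change was -0.25. The difference between the 2 genotypes' changes was 0.14 (SE 0.24, limma adjusted p = 1.00).

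Il9r, the IL-9 receptor chain, was close to the lower limit of the data at 0.0128 to 0.163 FPKM. After scaling for relative depth its values were multiples of 1 smallest step, from 1 to 12 steps per library and 58 in all, within 0.00176 of a whole number. WT baseline libraries held 4, 12 and 6 steps and WT cytokine libraries 4, 4 and 3. Adcy10-/- libraries held 1, 8 and 3, then 2, 1 and 10. The groups overlapped throughout, and Il9r, under the filter, was not tested.

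**Figure D3:**
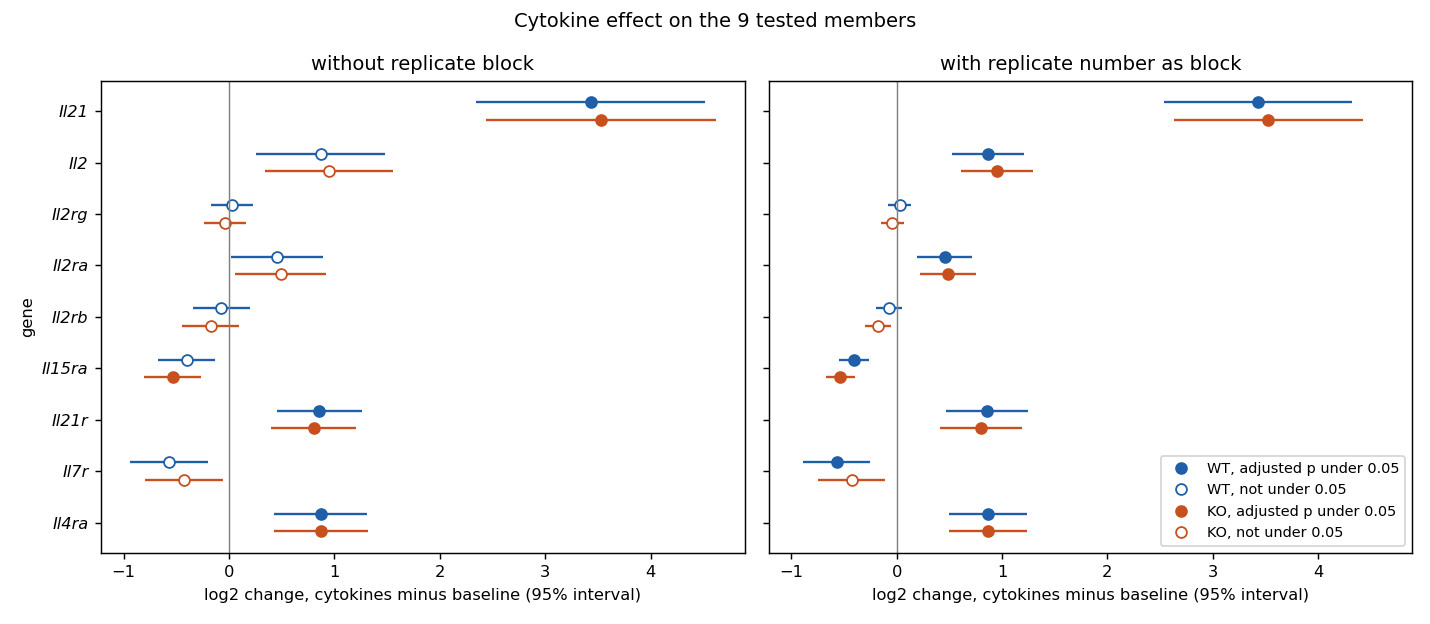
Difference of cytokine minus baseline medium on the log2(FPKM + 1) scale (horizontal axis) for the 9 tested genes, in WT and in Adcy10-/- (KO) cells, with 95% limma intervals, without (left) and with (right) the replicate block; filled points have an adjusted p under 0.05. Il21 stands apart at 3.43 and 3.53, Il21r, Il4ra and Il2 lie between 0.80 and 0.95, Il15ra and Il7r lie below 0, the left intervals of Il2rg and Il2rb include 0, and more points are filled on the right.

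By mean level over all libraries the order of the tested members was Il2rg, Il2ra, Il2rb, Il21r, Il4ra, Il21, Il2, Il15ra and Il7r. In baseline medium Il2ra and Il2rb overlapped, as did Il21r and Il4ra. With cytokines Il21r and Il4ra still overlapped with each other and with Il2rb, whereas Il2ra exceeded Il2rb within each of those libraries. At baseline the range of Il21 overlapped those of Il2, Il15ra and Il7r, and with cytokines it did not.

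The genes whose levels followed Il21 most closely over the 12 libraries were Sh3rf1 (Pearson r = 0.992 of log2(FPKM + 1)), Ncs1 (0.990), Malt1 (0.988), Abi3 (0.988) and Skap2 (0.987), of 7014 genes ranked. Malt1, a signaling protein downstream of the antigen receptor, went from 25.5 to 75.8 FPKM between the media. Closest to Il2 were Crabp2 (0.983), Gfi1 (0.973), Egln3 (0.969), Rab20 (0.964) and Batf (0.959). These values are descriptions, since the 12 points share 2 media and the numbering.

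Between the genotypes no difference in these genes passed. In baseline medium 0 of 9 members passed, where 0% of all tested genes did (118 genes at an unadjusted p under 0.05, 0 of them members). With cytokines 0 of 9 passed, against 0% (202 genes unadjusted, 0 members). Averaged over media 0 of 9 passed, against 0% (180 genes unadjusted, 0 members), and for the difference in cytokine effect 0 of 9, against 0% (112 genes unadjusted, 0 members). The ranges of the 2 genotypes overlapped for 9 of 9 members in both media, where 4.99% of all genes at baseline and 5.08% with cytokines did not overlap. Macrophage markers in these groups summed to 20.3 to 66.1 FPKM in WT and 15.4 to 20.5 FPKM in Adcy10-/- cells at baseline. With cytokines they summed to 29.3 to 103.6 and 21.5 to 28.3 FPKM, without overlap, and their part in the values of the members was not tested.

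The intervals show what size of genotype difference these libraries leave room for. Averaged over media, the Adcy10-/- minus WT difference was 0.03 for Il2rg (95% interval -0.11 to 0.18), which corresponds to 0.929 to 1.13 times the WT level on the FPKM + 1 scale. It was 0.03 for Il2rb (-0.16 to 0.22), 0.04 for Il15ra (-0.15 to 0.23), 0.07 for Il7r (-0.19 to 0.33), -0.02 for Il21r (-0.30 to 0.27), 0.01 for Il2ra (-0.29 to 0.32) and -0.08 for Il4ra (-0.39 to 0.24). The ligands were least precise. Il21 gave -0.06 (-0.83 to 0.71), or 0.563 to 1.63 times the WT level, and Il2 gave -0.21 (-0.64 to 0.23), or 0.643 to 1.17 times. All 9 had a limma adjusted p of 1.00. By medium, Il21 differed by -0.11 at baseline and -0.01 with cytokines, and Il2 by -0.25 and -0.17.

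The cytokine effects of the genotypes differed by 0.10 for Il21 (SE 0.70, 95% interval -1.44 to 1.64), 0.08 for Il2 (SE 0.39) and -0.13 for Il15ra (SE 0.17, -0.51 to 0.25), each with limma adjusted p = 1.00. For Il15ra, which passed in Adcy10-/- but not in WT cells, a difference between the genotypes' cytokine effects did not pass.

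**Figure D4:**
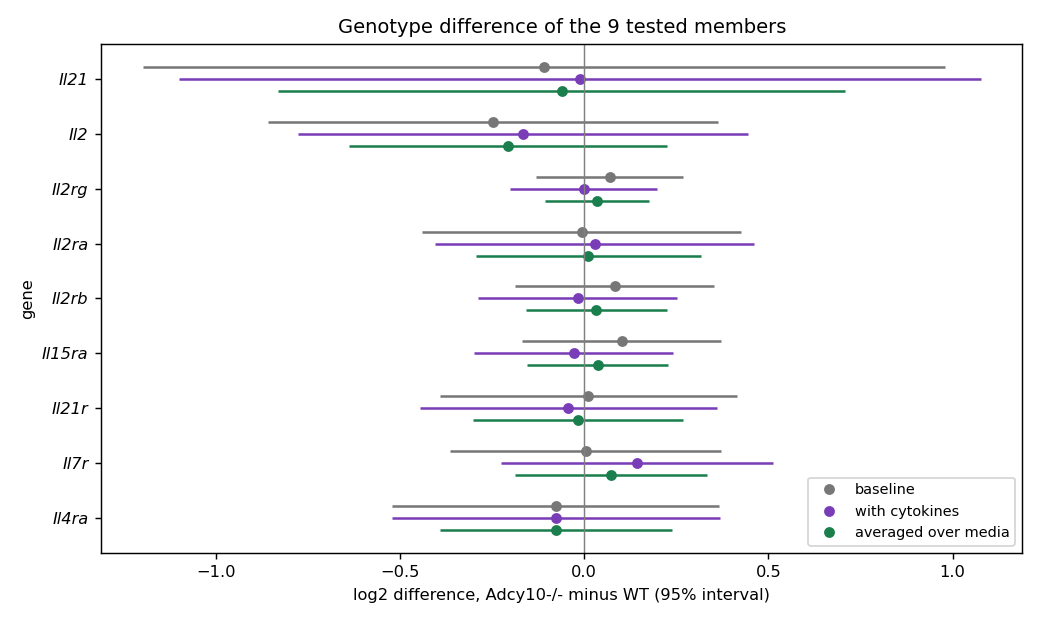
Adcy10-/- (KO) minus WT on the log2(FPKM + 1) scale (horizontal axis) for the 9 tested genes, in each medium and averaged, with 95% intervals from limma. Every interval includes 0, and those of Il21 are the widest.

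The rest of the pathway was read from lists of genes by role. The lists were chosen with earlier results of these data known, so their counts do not test enrichment. Beside the counts below, 4.93% of all tested genes passed in WT and 4.27% in Adcy10-/- cells. With the block these shares were 14.8% and 10.7%. Among the other ligands 3 of 6 were tested and 0 passed in either genotype (Il7, Il15 and Tslp were under the filter). Il4 gave 0.45 in WT and 0.56 in Adcy10-/- cells (limma adjusted p = 0.353 and 0.279) and Il13 -0.24 and -0.45 (0.603 and 0.352). Il9, a cytokine of helper cells, read 7.24, 6.44 and 14.2 FPKM in WT baseline libraries and 3.04, 3.93 and 5.15 FPKM with cytokines. In Adcy10-/- cells it read 3.28, 18.5 and 20.4 FPKM, then 2.19, 3.45 and 6.40 FPKM, with overlap. Its log2 changes of -0.98 and -1.36 did not pass (limma adjusted p = 0.375 and 0.236), and the Adcy10-/- one passed with the block (0.0310). Of the receptor chains that pair with members outside the common chain, Crlf2, which joins Il7r to bind TSLP, was the 1 tested of 3, at 0.33 and 0.18 (limma adjusted p = 0.309 and 0.722). The WT value passed with the block (0.00645).

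Of 9 kinase and STAT genes, 2 rose and 0 fell in WT cells, and 2 rose and 1 fell in Adcy10-/- cells, with a median change of 0.16 and 0.17. Both that rose were kinases. Jak2 read 41.9, 35.0 and 46.1 FPKM in WT baseline libraries and 65.9, 53.3 and 69.2 FPKM with cytokines, a log2 rise of 0.60 (limma adjusted p = 0.0136), and rose by 0.60 in Adcy10-/- cells (0.0149). Jak3, the kinase bound to the common chain, went from 50.1 ± 2.60 to 65.8 ± 5.13 FPKM in WT cells (SD, n = 3; log2 0.38, limma adjusted p = 0.0275) and rose by 0.40 in Adcy10-/- cells (0.0253). Stat6, the IL-4 factor, fell by 0.19 in Adcy10-/- cells (limma adjusted p = 0.0461) and gave -0.12 in WT cells (0.196). Stat5a gave 0.46 and 0.44 (limma adjusted p = 0.109 and 0.141), which passed with the block (0.0114 and 0.0142). With the block 3 of 9 rose and 3 fell in both genotypes.

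Of 11 tested adaptor, PI3K and Ras genes, 1 rose and 0 fell in WT cells and 1 rose and 1 fell in Adcy10-/- cells. Akt2, a kinase downstream of PI3K, rose by 0.38 and 0.34 (limma adjusted p = 0.0185 and 0.0305), and Pik3cd, a PI3K subunit, fell by 0.33 in Adcy10-/- cells (0.04995). Of 12 inhibitors of receptor signaling, 2 rose in WT and 1 in Adcy10-/- cells, and 0 fell. Socs3, which restrains IL-6 type and STAT3 signals, went from 29.7 ± 4.49 to 65.5 ± 20.8 FPKM in WT cells (SD, n = 3; log2 1.08, limma adjusted p = 0.0397) and rose by 1.26 in Adcy10-/- cells (0.0204). Socs1 rose by 0.62 in WT cells (limma adjusted p = 0.0454) and gave 0.57 in Adcy10-/- cells (0.0691). Cish, an inhibitor that STAT5 induces, gave 0.02 and -0.03.

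Genes known to answer IL-2 and STAT5 went both ways. Of 20, 2 rose and 3 fell in WT cells and 0 rose and 3 fell in Adcy10-/- cells, with medians of 0.11 and 0.14. With the block the counts were 6 and 6 in WT cells and 4 and 7 in Adcy10-/- cells. Lta, a lymphotoxin gene, read 79.1, 89.3 and 75.4 FPKM in WT baseline libraries and 30.0, 32.7 and 32.8 FPKM with cytokines, a fall of 1.32 on the log2 scale (limma adjusted p = 0.000481), and fell by 1.24 in Adcy10-/- cells (0.000662). Pim2, a survival kinase, went from 214.9 ± 14.8 to 114.0 ± 4.54 FPKM in WT cells (SD, n = 3; log2 -0.91, limma adjusted p = 4.09e-05) and fell by 1.04 in Adcy10-/- cells (2.36e-05). Nfil3, a transcription factor, rose by 1.24 in WT cells (limma adjusted p = 0.0402) and gave 1.10 in Adcy10-/- cells (0.0691). The others that passed were Foxp3, higher in WT cells as given above, and the costimulatory receptor Tnfrsf9, which fell by 0.38 and 0.45 (limma adjusted p = 0.0297 and 0.0141).

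Of 12 tested genes known to answer IL-21 or STAT3 (14 listed), 6 rose and 0 fell in each genotype, and the 6 were not all the same. Batf and Bcl3 passed in WT cells only and Hif1a and Bcl6 in Adcy10-/- cells only, without a test of that difference. The change was above 0 for 12 of 12 in each, against 4652 (WT) and 4290 (Adcy10-/-) of all 10126 tested genes. The medians were 0.70 and 0.68, against -0.01 and -0.02 over all tested genes. With the block 10 rose and 0 fell in each, where 14.8% and 10.7% of all tested genes passed. Maf, a factor known to drive Il21, went from 2.01 ± 0.441 to 5.86 ± 1.28 FPKM in WT cells (SD, n = 3; log2 1.18, limma adjusted p = 0.0027) and rose by 1.29 in Adcy10-/- cells (0.00146). Il10, an anti-inflammatory cytokine, rose by 1.10 in WT and 1.02 in Adcy10-/- cells (limma adjusted p = 0.0027 and 0.00396). Socs3, given above, is also on this list. IL-6, IL-21 and IL-23 all act through STAT3, and these libraries do not tell their parts in it apart.

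Of 25 transcription factors known to act on Il2 or Il21, 3 rose and 2 fell in WT cells and 3 rose and 3 fell in Adcy10-/- cells, with medians of 0.11 and 0.07. With the block 7 rose and 5 fell in each. Maf and the AP-1 member Fosl2 rose in both genotypes (Fosl2 by 0.99 in each, limma adjusted p = 0.00927 and 0.00938). Fosb, another AP-1 member, fell by 0.82 in WT and 0.96 in Adcy10-/- cells (limma adjusted p = 0.0295 and 0.0156). Egr3, an early factor of receptor signaling, fell by 0.72 and 0.82 (limma adjusted p = 0.00541 and 0.00242). Batf, which cooperates with IRF4 in Th17 cells, rose by 0.97 in WT cells (limma adjusted p = 0.0497) and gave 0.96 in Adcy10-/- cells (0.0571). Over all the pathway lists 95 genes other than the members were listed and 87 were tested. In each genotype 18 passed, where 4.93% (WT) and 4.27% (Adcy10-/-) of all tested genes did. Because earlier results were known when the lists were chosen, this is a description and no test of the pathway. Of the 18, 7 passed in each genotype without any 1 of the 12 libraries, among them Egr3, Fosl2, Il10, Lta, Maf and Pim2. Each of the other 11 in WT and 11 in Adcy10-/- cells lost its call in at least 1 such fit.

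**Figure D5:**
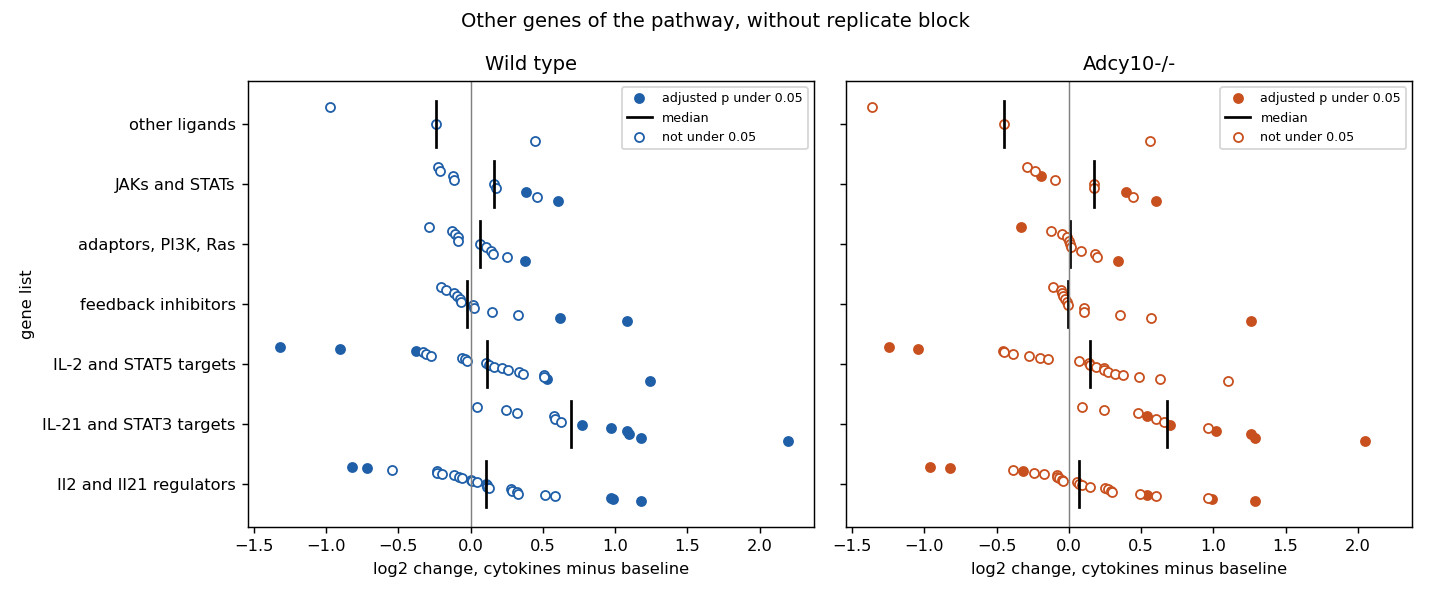
Difference of cytokine minus baseline medium on the log2(FPKM + 1) scale (horizontal axis) for genes of 7 pathway lists (points), in WT (left) and Adcy10-/- (right) cells, without the block; filled points have an adjusted p under 0.05 and black bars are medians. The genes known to answer IL-21 or STAT3 all lie above 0, with medians of 0.70 and 0.68, and the IL-2 and STAT5 list lies on both sides of 0.

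Several members moved with the library number. The library numbered 1 was the lowest of its group in 4 of 4 groups for Il2, Il2rb and Il15ra and in 3 of 4 for Il21 and Il2ra, and the highest in 4 of 4 for Il2rg. Il2rg lay at 365.5 to 402.2 FPKM in those 4 libraries and 312.9 to 365.6 FPKM in the other 8, and Il2rb at 124.1 to 128.5 against 126.3 to 174.1 FPKM. Their CD4 T cell markers summed to 2751 to 2845 FPKM against 2345 to 2700 FPKM in the others. The part of the cell mixture in these differences was not tested.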

How the data were processed

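PolyA RNA of 12 libraries was used, with groups and replicate numbers taken from the sample titles. The authors deposited FPKM per gene; per the submitters' processing notes the build was mm9 and the tools named were STAR 2.4.0f1, SAMtools 0.1.19, Cufflinks and HTSeq (no version for the last ones). Each file held 24488 entries for 23991 names; 258 names listed several times (755 entries) were summed, and a header line sorted among the genes was dropped. FPKM depends on the gene models used and on the other transcripts of a library, so it gives relative levels. Of 16728 genes above 0 in any library, 10126 had at least 1 FPKM in at least 3 libraries and were tested as log2(FPKM + 1) with limma 3.58.1 (R 4.3.3, data.table version 1.17.8), 4 group means, trended empirical Bayes and Benjamini-Hochberg adjustment over all tested genes, threshold 0.05. Intervals are 95%. Summaries and plots came from Python 3.11.15 (pandas 2.3.3, scipy 1.17.1, numpy 2.4.6, matplotlib 3.10.9).

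The members and gene lists were chosen with earlier results of these data known. The text names all 10 members, per list at most 3 passing genes of greatest change (with none passing, those of lowest p), and the 5 genes most like Il21 and Il2 (mean of at least 5 FPKM). Stat5a, Cish, Foxp3, Tnfrsf9, Fosb, Egr3, Batf, Il10, Bcl3, Hif1a, Bcl6, Il4, Il13 and the marker genes fall outside that rule or complete a count, and were chosen after their values were seen. Of the genes within the rule, 1 is not reported here.

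Between media, residuals correlated at 0.294 to 0.536 for libraries sharing number and genotype (median 0.449, 6 pairs) and, between genotypes, at 0.0736 to 0.523 for libraries sharing number and medium, so the replicate block is given beside cytokine effects only. The labels say nothing of what a number marks. On simulated data for 10126 genes, 200 of them changed, the procedure recovered 90% of 1.5-fold and 96% of 2-fold changes for the cytokine effect in WT cells, 92% and 100% for the averaged genotype difference, and 68% and 92% for the interaction. The changed genes were drawn above a minimum mean level. The simulated noise was independent between libraries, without the shared deviation of libraries of the same number. These rates are averages over such genes and do not say how likely a change in a given member was to pass. Il2, at 1.83-fold in WT cells on the FPKM + 1 scale, did not pass. The alternatives tried were other pseudocounts, filters, scalings, variance settings and sample sets, and the replicate block.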

Additional observations from a re-analysis of the deposited data

How the results depend on the processing

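Il21 kept its direction and passed in both genotypes in all of the alternative fits. Of 740 single-gene values under alternatives, 641 kept direction and call, 17 newly passed, 37 no longer passed and 45 changed sign, none of the last past the threshold and each with a main value of at most 0.2462 in size. Of the 740, 344 were genotype or interaction values far from the threshold (lowest limma adjusted p = 0.9384), so their calls could hardly move. The 37 lost calls were all cytokine effects on Il21r, Il4ra and Il15ra. Leaving out 1 library at a time gave 164 to 536 genes called for the cytokine effect in WT and 196 to 465 in Adcy10-/- cells, 1 to 4 members in each, and 0 to 1 genes for the averaged genotype difference, the difference with cytokines and the interaction. The causes of these changes were not tested.

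Without the libraries numbered 1 the counts were 205 (cytokine effect in Adcy10-/- cells), 2 (averaged genotype), 2 (genotype with cytokines) and 1 (interaction). With only the groups compared in the fit, 275 genes were called in WT cells and 314 in Adcy10-/- cells, 1 of the 314 a member. Without the filter 16728 genes were tested. Of these, 376 were called in WT and 320 in Adcy10-/- cells, with 1 member in each genotype. With the replicate block 1502 and 1086 genes were called for the cytokine effects in WT and Adcy10-/- cells, and 3 for the averaged genotype difference, none a member; with the block within genotype 1574 and 1193. Both blocks called the same members in each genotype, 7 in WT cells, and the block changed no member call beyond those given beside the results. No genotype or interaction value of a member passed with the block.

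Sign changes without the libraries numbered 1 were 0.00183 for Il2 with cytokines (Adcy10-/- minus WT), 0.00383, 0.0672 and 0.0355 for Il21 at baseline, with cytokines and averaged, and 0.00751 for the cytokine effect on Il2rg in Adcy10-/- cells. Quantile normalization gave 0.0225 for Il21 with cytokines, 0.00266 for Il21r averaged and -0.0198 for the cytokine effect on Il2rg in WT cells; median-ratio scaling gave 0.00521 for Il21 with cytokines.

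Over fits without 1 library, the averaged genotype difference spanned -0.00225 to 0.0985 (Il15ra), -0.277 to 0.2243 (Il21), -0.0844 to 0.0821 (Il21r), -0.0558 to 0.1289 (Il2ra), -0.0225 to 0.0987 (Il2rb), -0.00821 to 0.0710 (Il2rg) and -0.1706 to 0.0244 (Il4ra). At baseline it spanned -0.4661 to 0.0543 (Il2) and -0.5425 to 0.4601 (Il21), and with cytokines -0.2806 to 0.0547 and -0.0657 to 0.0572. The interaction spanned -0.2201 to 0.3009 (Il2), -0.4715 to 0.5310 (Il21) and -0.0242 to 0.2847 (Il7r). The cytokine effect spanned -0.1615 to 0.00355 (Il2rb, WT), -0.0242 to 0.1043 (Il2rg, WT) and -0.0840 to 0.0444 (Il2rg, Adcy10-/-).

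Taking the largest entry in place of the sum changed the members by 0 FPKM. Limits are the 3 libraries per group, the unknown absolute depth, and marker levels that move with the library number. Il9r was too low to pass the filter, and for Il21 at baseline the spread between libraries is a limit.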
